A study of Homo sapiens with 22 samples.

Results

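Interferon-stimulated genes are the genes that a cell turns on after it senses an interferon or a foreign nucleic acid. The list described here holds 40 of them, named by symbol with earlier results of these data known, and each symbol was found once in the gene tables of 3 single-cell experiments, among 33538 genes in the first and 36601 in the second and the third. All 40 had at least 1 UMI, a counted RNA molecule, in the first and the second experiment, and 39 in the third, where IFITM1 was listed at 0.

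Type I and type III interferons bind their receptors at the cell surface and act through the kinases JAK1 and TYK2, which phosphorylate STAT2. With IRF9 it is part of the complex ISGF3, which enters the nucleus and binds a short element, the interferon-stimulated response element, near the start of its target genes. The products detect viral RNA, block its translation, degrade it or hold back budding particles, and several of them, such as STAT2, IRF7, IRF9 and the sensors, are themselves part of the pathway, while USP18 dampens it. RNA sensors and factors such as IRF1 and IRF3 can also switch on some of these genes, the IFIT genes and OASL among them, without an interferon.

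The element is visible in the promoters of the list. RefSeq promoters on the build GRCh38.p14, from 250 bases before to 50 bases after the start, were found for 33 of the 40 members and searched on both strands for GAAA-NN-GAAA, a short form of the element in which N is any base and occurrences may overlap. The letters were found in 21 of the 33 member promoters (63.6%) and in 1255 of all 35116 promoters (3.57%), and 15 members against 91 promoters in all held them at least 2 times. With 1 to 3 bases allowed between the GAAA repeats, 26 members (78.8%) and 3047 of all promoters (8.68%) had a match. The windows of 9 members are shown because these genes differ in the responses described further on. Of the first 5, ISG15, IFIH1 and HERC5 were many times higher in a small set of cells. IFIT1 and IFIT3 helped to choose that set, so their level in it is no result. IFI6, EIF2AK2 and MX1 were under 3-fold there, with MX1 too low for a direction, and BST2 differed between states in WM989. Capitals mark the occurrence nearest to the start, each sequence reads 5′ to 3′ on the strand that carries the motif, and coordinates are on GRCh38.p14.
ISG15, ubiquitin-like modifier, chr1:1013380-1013409, strand of the gene (plus): tcgggaaaggGAAACCGAAActgaagccaa
IFIT1, chr10:89392510-89392539, strand opposite to the gene (minus): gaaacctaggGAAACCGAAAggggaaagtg
IFIT3, chr10:89327865-89327894, strand opposite to the gene (minus): gaggaaactgGAAAGTGAAActaatttaaa
IFIH1, RNA sensor, chr2:162318686-162318715, strand of the gene (minus): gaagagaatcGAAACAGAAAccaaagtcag
HERC5, ISG15 ligase, chr4:88457035-88457064, strand opposite to the gene (minus): agctccagtgGAAAACGAAAcataatgttt
IFI6, chr1:27672266-27672295, strand of the gene (minus): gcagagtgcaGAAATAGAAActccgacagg
EIF2AK2, the kinase PKR, chr2:37156967-37156996, strand of the gene (minus): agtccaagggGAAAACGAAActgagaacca
MX1, chr21:41420559-41420588, strand of the gene (plus): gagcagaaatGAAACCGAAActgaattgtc
BST2, tetherin, chr19:17405735-17405764, strand of the gene (minus): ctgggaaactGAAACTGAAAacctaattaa
The centre of the motif lay 102, 98, 117, 16 and 69 bases before the start in the first 5, 88 bases before it in IFI6, at the base before the start in EIF2AK2, 16 bases after it in MX1 and 119 before it in BST2. Neither form of the motif was found in this window of IRF1, IRF9, STAT2, PARP9, SAMD9L, ZC3HAV1 or CMPK2. A match describes these letters only, and a window without one says nothing of the factors that bind there.

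The cells are from 2 human melanoma lines, WM989 and WM983B, in both cases derived from a clone grown out of a single cell. They are labelled as drug-susceptible cells and primed cells, the state from which resistance to targeted therapy arises. The first experiment holds 12531 untreated WM989 cells from a population given lentiviral lineage barcodes, with a barcode detected in most cells (91.7% to 98.0% by well), in 8 chip wells. The study's methods state that sorted primed and mixed cells were each loaded over a pair of chip wells. The 8 wells therefore stand for fewer cultures, and a count of wells is not a count of independent cultures. The cell labels give wells 1 to 4 as r1 and wells 5 to 8 as r2, but not which wells pair. The second holds 1449 untreated WM983B cells in 1 library. The third holds 40021 WM989 cells of a barcoded population in 8 libraries (a barcode in 95.4% to 99.6% of cells by library), 2 each (r1 and r2 in the cell labels) of Control, TGFB1 (the cytokine), TGFBRi (an inhibitor of its receptors) and PI3Ki (an inhibitor of PI3 kinase), with untreated Control as the background. The sample labels of each treatment's libraries read Mix and Primed where the cell labels read r1 and r2, the methods describe parallel replicates, and which library is which could not be matched. ATAC-seq, which maps open chromatin, was made from WM989 cells sorted as EGFR High, NGFR High, EGFR NGFR High or Mix, with 3 libraries each; the study's methods call the comparison sort negative for the markers, whereas its label reads Mix. The states are the study's own labels, called by clustering the same counts, so that differences between states or clusters are descriptions without a test. In the treatment experiment, r1 and r2 are samples carried in parallel, each divided over the 4 plates. With a term for the replicate, p-values measure how far the treatment differences vary between these 2 samples. Whether the ATAC-seq libraries are separate cultures is not stated.

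Depth set what could be seen. Median UMIs per cell were 45287 to 111820 in the wells of the first experiment, 66668 in WM983B and 13013 to 21720.5 in the libraries of the third. The labelled states were checked on their markers. In the first experiment SOX10, a melanocyte lineage factor, was at 7.09 CPM, UMIs of a gene scaled to a common total, in primed cells and at 130 CPM in drug-susceptible cells, and AXL, a receptor kinase of the primed state, at 42.3 against 0.469 CPM. In WM983B AXL was at 76.2 against 24.2 CPM, while SOX10 hardly differed (192 against 208 CPM). The other melanocytic markers were lower in primed WM983B cells, MITF at 197 against 392 CPM and MLANA at 2.40 against 59.8 CPM. PMEL was at 210 against 895, DCT at 87.1 against 423 and TYR at 57.1 against 67.9 CPM. Primed cells made up 56.9% to 79.7% of wells 1, 2, 5 and 6 and 6.85% to 9.42% of wells 3, 4, 7 and 8; cell labels give the well but not its sort. Some cell barcodes appeared in more than 1 library, 38 cells (0.303%) in the first and 388 (0.969%) in the third experiment. UMIs are counted at one end of the transcript, so that a CPM is not divided by length, and intervals given here cover counting error only.

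It was first asked how the members stood in primed WM989 cells. The summed CPM of the 40 members was 1908 in primed and 773 in drug-susceptible cells, a ratio of 2.47 over pooled cells. Primed and drug-susceptible cells came mostly from different wells, and within a well the ratio was smaller, with 1.81, 1.62, 1.38, 1.18, 1.57, 1.76, 1.27 and 1.97 in wells 1 to 8. Drug-susceptible cells themselves had higher sums in wells 1, 2, 5 and 6, at 989, 1075, 1505 and 1438 CPM. In wells 3, 4, 7 and 8 their sums were 683, 674, 738 and 716 CPM. Counts over pooled cells therefore mix state and well. Among the 35 members with at least 5 CPM in either state, 24 were above 2-fold in primed cells over pooled cells. The share was 11.2% of the 10313 genes held to the same level, and 0 members were below 0.5-fold against 6.8%. Some, such as OASL, RSAD2 and XAF1, were under 5 CPM in drug-susceptible cells and entered through their primed level alone. The same rule was applied to all genes and to the other counts between states and clusters. 21 of the 35 were higher in primed cells of every well (29.6% of all genes) and 1, USP18, was lower in every well (33.2% of all genes). The lowest primed well lay above the highest drug-susceptible well for 5 of them (13.6% of all genes), namely OASL, IRF1, BST2, RSAD2 and SAMD9L. The other members higher in every well were the sensor genes DDX58 and DDX60, IFIT5, OAS2, TRIM21, STAT2, IRF7, IRF9, IFITM3, SAMD9, PARP14, IFI44, IFI44L, IFI27, IFI35 and XAF1. Under 5 CPM in both states were IFITM1, IFITM2, MX1, MX2 and CMPK2, of which IFITM2 and MX2 were also higher in all 8 wells.

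**Figure D1:**
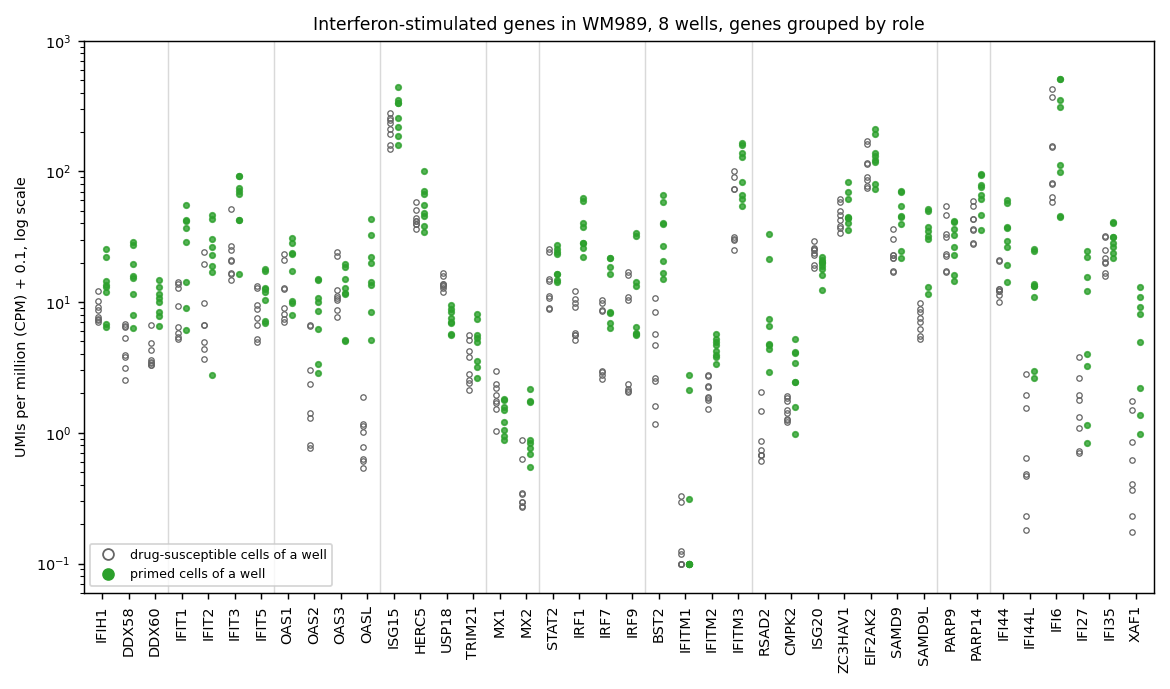
Level of each of the 40 members in CPM (plus 0.1, log axis) in drug-susceptible (open circles) and primed (green) cells of each of the 8 wells of the first experiment, with genes grouped by role. The circles of OASL, BST2, IRF1, RSAD2 and SAMD9L do not overlap between states, while those of ISG15, EIF2AK2 and PARP9 lie on top of each other and USP18 is lower in the primed cells.

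All 4 transcription factors of the list were higher in primed cells of every well. IRF1, which can switch on interferon targets by itself, was at 22.0, 32.9 and 62.3 CPM (lowest, median and highest well) in primed and 5.08, 7.35 and 12.1 CPM in drug-susceptible cells, a median within-well ratio of 4.80. IRF7, the amplifier of interferon genes, and IRF9, the DNA-binding subunit of ISGF3, had median ratios of 2.22 and 2.23, and STAT2 a smaller one of 1.55.

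The largest within-well ratios were those of OASL, IFI44L and RSAD2, all of low level in drug-susceptible cells. OASL, a catalytically inactive member of the oligoadenylate synthetases that aids RNA sensing, was at 5.02, 17.1 and 43.1 CPM in primed cells and 0.44, 0.80 and 1.79 CPM in drug-susceptible cells, with a median ratio of 28.1. Its relatives OAS2, OAS1 and OAS3 had median ratios of 4.27, 1.36 and 0.94, so that only OASL and OAS2 of this family were higher in every well. RSAD2, the enzyme viperin, which makes a chain-terminating nucleotide, was at 2.81, 5.55 and 33.4 CPM against 0.51, 0.61 and 1.94 CPM, and its neighbour in the genome CMPK2, a nucleotide kinase, had a median ratio of 1.98. IFI44L, a gene of little known function, was at 2.51, 13.2 and 25.6 CPM against 0.08, 0.46 and 2.74 CPM, where the highest drug-susceptible well passed the lowest primed well. SAMD9L, a brake on translation, was at 11.4, 33.6 and 51.3 CPM against 5.13, 7.20 and 9.81 CPM and did not overlap.

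BST2, or tetherin, which holds budding virus at the membrane, was at 14.8, 33.3 and 65.9 CPM in primed cells and 1.07, 3.55 and 10.6 CPM in drug-susceptible cells. The IFIT genes encode proteins that bind viral RNA, and of the members with at least 5 CPM the ratio of IFIT2 varied most between wells (SD 1.40 on the log2 scale). IFIT2 was at 2.68, 24.7 and 46.2 CPM in primed cells and 3.59, 6.56 and 23.9 CPM in drug-susceptible cells and was higher in 6 of 8 wells, so that its states overlapped widely, and IFIT1 and IFIT3 were higher in 7 of 8. The members of highest level differed little, ISG15 with a median ratio of 1.17, EIF2AK2 with 1.17 and IFI6, a mitochondrial protein, with 1.30. USP18, which removes ISG15 from proteins and shuts off the receptor, was at 5.47, 7.15 and 9.44 CPM in primed cells and 11.8, 13.5 and 16.5 CPM in drug-susceptible cells. The exonuclease gene ISG20 (median ratio 0.78) was higher in primed cells of only 2 of 8 wells and MX1, a GTPase gene at low level (0.66), in 0 of 8.

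Among the deposited cluster labels, cluster 2 carried the highest level of OASL, BST2, IRF1, IFI44L, ISG15 and IFI6. OASL was at 32.0 CPM there, at 12.7 CPM in cluster 9 and at 9.93 CPM in cluster 8, and at 3.24 CPM or lower in each of the other 8 clusters. BST2 followed the same order with 55.7, 36.6 and 21.3 CPM. IFIT2 did not, since cluster 10, of drug-susceptible cells, stood second with 30.2 CPM after 42.4 CPM in cluster 2, and IFIH1, the sensor MDA5, was highest in cluster 10 with 23 CPM.

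In WM983B the same comparison gave a smaller difference on a higher level. The summed CPM was 4231 in primed and 3055 in drug-susceptible cells, a ratio of 1.39, and 10 of 38 members with at least 5 CPM were above 2-fold (1.78% of 10673 genes) while 0 were below 0.5-fold (0.928%). The largest ratios were those of RSAD2 (8.05), OASL (6.83), IFIT2 (6.20), XAF1 (2.67), MX2 (2.46), IFIT1 (2.41), IFI44L (2.27) and IRF1 (2.25), where XAF1 is a pro-apoptotic factor and MX2 a nuclear pore GTPase. The smallest were ISG20 (0.97), EIF2AK2 (1.1), STAT2 (1.1) and IFI27 (1.13), the last of which encodes a mitochondrial membrane protein. BST2, at 560 against 471 CPM, differed little here, in a line where its level was far above the 45.3 and 2.64 CPM of WM989. There is 1 library, so the difference has no replicate check.

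Both clusters labelled primed in WM983B, 0 and 2, had sums above those of drug-susceptible cells (ratios of 1.41 and 1.22), with different members. IFIT2 was at 101.9 CPM in cluster 0, 13.8 in cluster 1, 5.27 in cluster 2 and 17.8 in cluster 3. The ratio of cluster 0 to cluster 2, both labelled primed, was 19.3 (95% interval 13.8 to 28.0). In WM983B 14 cells held 68.5% of all IFIT2 UMIs, a spread between cells that the interval does not cover. OASL was at 31.0, 3.5, 4.7 and 7.2 CPM in the same order. With cluster 2 alone standing for the primed state, 0 of 35 members were above 2-fold (2.84% of all genes) and 2 below 0.5-fold (1.25%), and with cluster 0 alone 12 of 38 were above (1.91%) and 0 below (1.06%). IFI6, BST2 and ISG20 had the opposite order of the 2 primed clusters, with 859.6, 552 and 111 CPM in cluster 0 and 1070.5, 615 and 188 CPM in cluster 2.

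In the third experiment, over all treatments, the sum was 963 CPM in primed cells and 590 CPM in drug-susceptible cells (ratio 1.63), with 12 of 30 members above 2-fold (8.53% of 10306 genes) and 0 below 0.5-fold (5.0%). OASL (43.3), BST2 (31.9), IFI44L (9.81), RSAD2 (7.33), IRF1 (5.58), IFIT2 (5.47) and IFIT1 (5.13) had the largest ratios, and USP18 (0.56) and ISG20 (0.69) the smallest. IFI44L and RSAD2 rest on few UMIs, with 280 and 561 over all cells. Of the 4077 primed cells, 3334 were from the TGFB1 libraries, so states and treatments are mixed in these ratios. In Control cells alone the ratio of the sums was 1.52, and 12 of 29 members were above 2-fold (9.6% of all genes) and 0 below 0.5-fold (3.6%). There BST2 had a ratio of 31.2 (95% interval 24.9 to 39.0), OASL 17.2, IRF1 5.40 and IFIT2 4.27. USP18 had a Control ratio of 0.57 (95% interval 0.38 to 0.83) and ISG20 one of 0.78 (0.63 to 0.96). In TGFB1 cells ISG20 had the opposite order, at 21.3 CPM in the primed state against 14.0 CPM, while USP18 was at 5.86 against 16 CPM. OASL, BST2 and IRF1 were among the members above 5 in the pooled values of both WM989 experiments.

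Means over cells hide how unevenly some members were spread, so the summed level of IFIT1, IFIT2 and IFIT3 was taken in each cell. A cell was called IFIT-high at 1000 CPM or more of the 3 genes together, a limit chosen after the values were seen, which marks a range of a continuous level and not a cell type. There were 120 such cells in the first experiment (0.958%), 36 in WM983B (2.48%) and 147 in the third experiment (0.367%), and 54, 14 and 55 of them lay within a factor of 2 above the limit. They held 51.2%, 51.3% and 48.1% of all UMIs of IFIT1, IFIT2 and IFIT3. Median UMIs in IFIT-high and other cells were 61594 and 53504, 65363 and 66729, and 14163 and 16329.

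**Figure D2:**
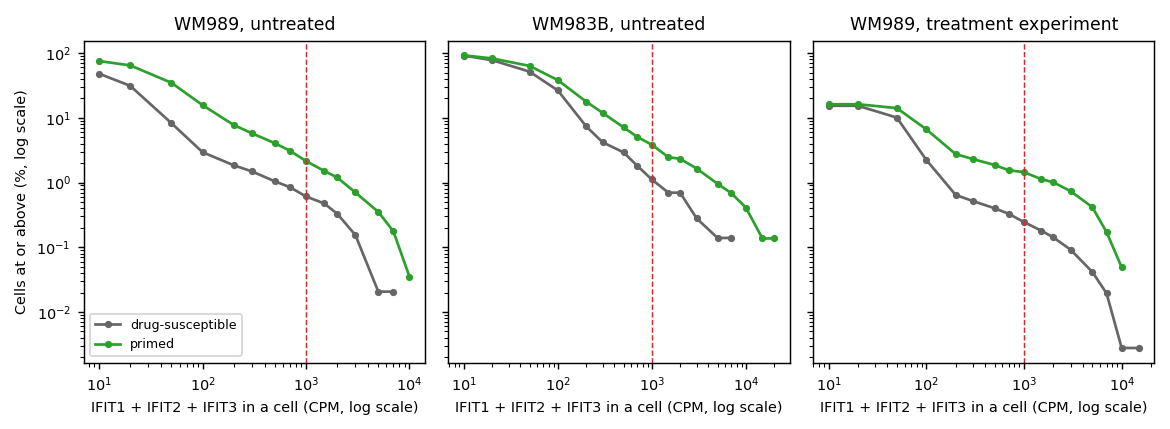
Percent of cells (log axis) whose summed IFIT1, IFIT2 and IFIT3 level is at or above the CPM on the x axis, by state, in the 3 experiments, with the limit of 1000 CPM dashed. In each panel the curve of primed cells lies above that of drug-susceptible cells at the limit, with 2.15% against 0.609% in the first experiment, 3.83% against 1.11% in WM983B and 1.45% against 0.245% in the third.

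IFIT-high cells were found in both states, and over pooled cells they made up a larger share of primed cells. The share was 2.15% of primed and 0.609% of drug-susceptible cells in the first experiment, a ratio of 3.52 (95% interval 2.42 to 5.13). It was 3.83% and 1.11% in WM983B (ratio 3.44, 1.53 to 8.73) and 1.45% and 0.245% in the third experiment (ratio 5.91, 4.18 to 8.31). With a limit of 500 CPM the 3 ratios were 3.88, 2.43 and 4.65, and with 2000 CPM 3.62, 3.34 and 7.09. In the first experiment every well and every one of 11 clusters held some. In WM983B 28 of the 36 were in cluster 0 and 8 in cluster 1. In the third, 76 were in cluster 12, 58 in cluster 4 and 8 in cluster 3. 55 of the 59 primed ones there came from the TGFB1 libraries, where the share of primed and drug-susceptible cells that were IFIT-high was 1.2% and 0.390% in r1 and 2.05% and 0.233% in r2, next to 1.06% and 0.246% in Control r1 and 1.82% and 0.312% in Control r2. The Control primed shares rest on 1 of 94 and 3 of 165 cells, and not every library had this order. Well 7 held 0 IFIT-high cells among 196 primed cells, with an exact 95% upper limit of 1.86%, against 7 of 1941 drug-susceptible cells. The TGFBRi libraries held 0 among 118 and 271 primed cells (up to 3.08% and 1.35%) against 6 of 5111 and 22 of 6002, and the PI3Ki libraries 0 among 25 and 70 (up to 13.7% and 5.13%) against 9 of 3837 and 6 of 5709.

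The other 37 members were then read in these cells, as a description, since IFIT1, IFIT2 and IFIT3 chose them. Of those with at least 5 CPM over all cells, 24 of 26, 25 of 34 and 15 of 20 were above 2-fold in IFIT-high cells (2.08%, 1.44% and 2.13% of all genes), and 0 were below 0.5-fold in each (0.718%, 0.62% and 1.55%). These ratios pool the states, while 50.8%, 77.8% and 40.1% of the IFIT-high cells were primed against 22.4%, 49.8% and 10.1% of the others. Among primed cells alone 28 of 32, 25 of 35 and 19 of 26 were above 2-fold (1.55%, 1.79% and 1.56% of all genes) and 0 below (0.477%, 1.24% and 5.6%). Among drug-susceptible cells alone 8 of 20, 9 of 32 and 10 of 19 were above (0.568%, 1.68% and 1.09%), and 0 below (0.663%, 4.25% and 1.77%). With at least 5 CPM in every experiment, 5 of 20 members and 6 of 8820 genes (0.068%) were above 5-fold in all 3. These members were the sensor IFIH1, ISG15 and its ligase HERC5, the antiviral zinc finger gene ZC3HAV1 and SAMD9. With no limit on level 10 of the 37 were above 5-fold in all 3, a count with no share of all genes beside it. It adds the sensor DDX58, OASL, MX2, RSAD2 and CMPK2. MX2 was too low for a direction in the third experiment, with 3.96% of its 101 UMIs in IFIT-high cells. RSAD2 was at 269.8 against 1.24 CPM in the first experiment, 189 against 2.42 CPM in WM983B and 66.2 against 0.604 CPM in the third. OASL was at 354 against 2.80 CPM, 398 against 5.68 CPM and 216 against 0.622 CPM.

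ISG15 reached 2070, 2709 and 2055 CPM in the IFIT-high cells of the 3 experiments, from 212, 501 and 144 CPM in the others. The cells were cut at the same IFIT level in every experiment, so the likeness of its levels there is no result. 8 members were under 3-fold in all 3: MX1, IRF9, IFITM2, IFITM3, EIF2AK2, PARP9, IFI6 and IFI35. At the level of 5 CPM in every experiment this held for 5 of 20 members and for 99.2% of genes. EIF2AK2 was at 151 against 108 CPM, 239.5 against 177 CPM and 108 against 94.1 CPM, close to its level in the other cells each time. IFI6, a target at high level in WM983B, was at 343 against 159 CPM, 1211 against 802 CPM and 50.1 against 42.1 CPM. MX1 was too low for a direction, with 8, 4 and 4 UMIs in the IFIT-high cells.

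**Figure D3:**
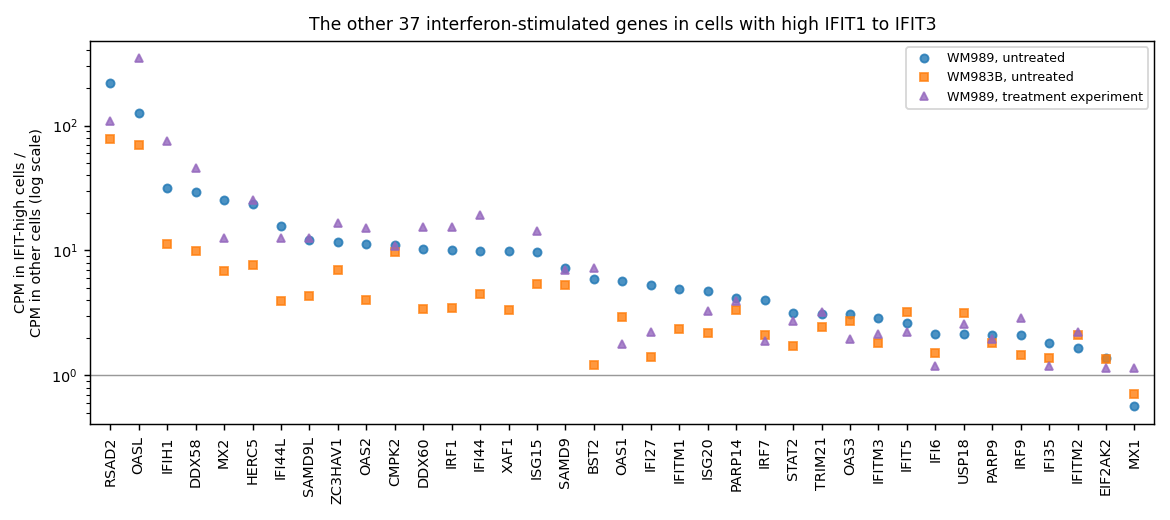
Ratio of CPM in IFIT-high cells to CPM in the other cells (log axis) for each of the 37 members that did not choose the cells, with 1 point for each experiment. OASL, RSAD2, IFIH1 and DDX58 lie far above 1 in all 3 experiments, while EIF2AK2, IFI6, IFI35, IRF9 and MX1 stay under 3; XAF1 and IFITM1 have no point in the third experiment.

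The order of the members was alike between experiments by Spearman's rank correlation. It was 0.862 over 37 members between the first experiment and WM983B, 0.859 over 36 between the first and the third and 0.826 over 36 between WM983B and the third. Pearson's r for these pairs was 0.914, 0.915 and 0.877. The values are on log2 ratios with 0.5 counts added and 20 UMIs or more in each gene. The points are genes of the same cells, and the first and the third experiment share a line. The motif did not separate the ends of this order, since it was found in 4 of 8 promoters at hand from the genes above 5-fold and in 4 of 7 from the genes under 3-fold (6 of 8 and 5 of 7 with 1 to 3 bases between the repeats). Members that did not choose the IFIT-high cells differed in the share of their UMIs found there. It was 57.8%, 63.5% and 53.1% for OASL in the 3 experiments. For IFI6 it was 2.29%, 3.61% and 0.388%, and for EIF2AK2 1.49%, 3.26% and 0.375%.

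The states were then compared without the IFIT-high cells, over pooled cells. IFIT1, IFIT2 and IFIT3, which chose those cells, are left out on both sides. The summed CPM of the other 37 members then had a ratio of 2.21 in the first experiment (2.40 with all cells), with 20 of 31 above 2-fold (11.2% of all genes; 21 of 32 with all cells) and 1, USP18 at 0.48, below 0.5-fold (6.83%). The ratio was 1.24 in WM983B (1.34 with all cells), with 5 of 34 above (1.68%; 8 of 35 with all cells) and 0 below (0.9%). In the third experiment it was 1.40 (1.56 with all cells), with 9 of 25 above (8.55%; 9 of 27 with all cells) and 0 below (4.99%).

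Cluster 12 of the third experiment was rich in IFIT-high cells. It held 114 cells (0.285%), all labelled drug-susceptible, with 8 to 28 cells in each of the 8 libraries, and 76 of them (66.7%) were IFIT-high. The summed CPM of the members was 6405 in cluster 12 and 601 in the other clusters, a ratio of 10.7 that ranged from 8.34 to 13 over the libraries. 19 of 30 members were above 2-fold (1.57% of 9997 genes) and 0 below 0.5-fold (1.24%). As the clusters were called on these counts, the values describe the cluster and test nothing.

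IFIT2 was at 810 CPM in cluster 12 and 3.18 CPM in the others (ratio 254), IFIT3 at 1185 and 9.76 CPM (121) and IFIT1 at 335 and 3.10 CPM (108). The sensor gene IFIH1 was at 366 and 5.07 CPM (72.1) and OASL at 67.7 and 1.13 CPM (60.1). HERC5 (636 and 32.8 CPM), ZC3HAV1 (569 and 40.2 CPM) and ISG15 (1627 and 146 CPM) were the other members of high level. The smallest ratios were those of EIF2AK2 (0.99), BST2 (1.02), IFIT5 (1.16) and IFI6 (1.23). The other clusters include primed cells, so cluster 12 was also set against the other drug-susceptible cells alone, with a ratio of the sums of 11.2 and 21 of 30 members above 2-fold (1.97% of 9967 genes) and 0 below 0.5-fold (1.05%). BST2 then had a ratio of 3.45 (95% interval 1.93 to 5.71), at 7.41 CPM on 15 UMIs against 2.15 CPM, while primed cells held 69.1 CPM, and EIF2AK2, IFIT5 and IFI6 had ratios of 0.98, 1.18 and 1.23. Median UMIs were 16907 in cluster 12 and 16321 elsewhere, the median mitochondrial share was 9.33% against 10.5%, and 46.5% against 27.7% of cells were labelled G2M, whose part in these levels was not tested. With each cell thinned to 5000 UMIs, the median number of members detected was 9 in cluster 12 and 1 to 3 in the other clusters.

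Cluster 4, of primed cells, had a different makeup from cluster 12. BST2 was at 80.6 CPM there and 7.41 CPM in cluster 12, IRF1 at 30.6 and 29.7 CPM, OASL at 16.2 and 67.7 CPM, and IFIH1 at 11.7 and 366 CPM. USP18 was at 5.75 CPM in cluster 4, the lowest of the 13 clusters, and at 25.7 CPM in cluster 12, the highest.

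The treatments asked whether TGF-β and PI3 kinase signalling change the cells' state. For each library the counts of its cells were added up and compared with Control in edgeR's quasi-likelihood test with a term for the replicate and Benjamini-Hochberg adjustment over 18389 genes, and 39 members were tested. The 3 comparisons share the Control libraries and are not independent. In a sum over cells, a change in the share of a kind of cell and a change of RNA per cell cannot be told apart: primed cells were 2.26% and 4.47% of Control, 29.1% and 31.3% of TGFB1, 2.26% and 4.32% of TGFBRi and 0.647% and 1.21% of PI3Ki. The test was therefore repeated on drug-susceptible cells alone, over 17914 genes, although that label was itself called on these counts.

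With TGFB1, 15 of 39 members rose (16.3% of all genes tested) and 4 fell (12.7%). All 4 transcription factors rose, with 3 of 4 IFIT genes, the sensor gene DDX58, OASL, RSAD2, CMPK2, SAMD9L, IFI44L, BST2 and IFITM3, and ISG20, MX1, OAS1 and PARP9 fell. The median log2 fold change of the members was 0.14, beside 0.01 for all genes. In drug-susceptible cells 5 rose (8.56%) and 6 fell (6.32%), which were BST2, IRF9, STAT2, IRF1 and USP18 on one side and ISG20, DDX60, IFIH1, OAS1, PARP9 and IFITM3 on the other. Without Control r2 these were 3 and 2 (4.87% and 3.07% of all genes), and without TGFB1 r1 or r2, 1 or 2 fell (1.83% and 4.41%).

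BST2 was at 1.82 and 2.29 CPM in the Control libraries (r1 and r2) and at 30.8 and 19.9 CPM with TGFB1, a log2 fold change of 3.59 ± 0.16 (SE; edgeR adjusted p = 9.36e-14). In drug-susceptible cells it was at 1.09 and 1.29 against 7.54 and 5.20 CPM, 2.40 ± 0.17 on the log2 scale (edgeR adjusted p = 2.01e-10). Each TGFB1 library lay above each Control library in both sums. IRF9 was at 2.04 and 2.58 CPM in Control and 4.47 and 5.42 CPM with TGFB1 (log2 fold change 1.08 ± 0.11, edgeR adjusted p = 1.29e-07), and in drug-susceptible cells at 1.92 and 2.43 against 3.34 and 3.89 CPM (0.72 ± 0.13, edgeR adjusted p = 0.000228). IRF1, at 5.24 and 5.26 against 12.1 and 13.1 CPM, rose by 1.25 ± 0.09 (edgeR adjusted p = 1.73e-10) over all cells and by 0.45 ± 0.10 (edgeR adjusted p = 0.00259) in drug-susceptible cells, a call lost without Control r2 (0.35). STAT2 had nearly the same log2 fold change in both sums, 0.48 ± 0.08 (edgeR adjusted p = 3.98e-05) and 0.46 ± 0.08 (edgeR adjusted p = 0.000217).

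OASL behaved otherwise. It was at 0.346 and 1.33 CPM in Control and 2.85 and 5.62 CPM with TGFB1 over all cells, a log2 fold change of 2.36 ± 0.18 (edgeR adjusted p = 4.94e-10). In drug-susceptible cells it was at 0.261 and 0.952 against 0.217 and 0.592 CPM (−0.59 ± 0.27, edgeR adjusted p = 0.161), where the groups overlapped. IFIT1 was at 3.65 and 4.25 CPM in Control and 6.41 and 8.02 CPM with TGFB1 (0.85 ± 0.12, edgeR adjusted p = 4.92e-06), and its value in drug-susceptible cells was −0.05 (edgeR adjusted p = 0.895). IFIT2 had a log2 fold change of 0.65 over all cells, which was 0.29 without Control r1 and 1.141 without Control r2, and its call was kept in 10 of 15 alternatives. Without cluster 12, IFIT2 had a log2 fold change of 2.12 (edgeR adjusted p = 6.33e-11) and OASL 3.71. IFI44L (1.72 ± 0.26, edgeR adjusted p = 2.35e-05), RSAD2 (1.30 ± 0.21, edgeR adjusted p = 3.52e-05, with 0.82 without TGFB1 r2 and 0.66 without IFIT-high cells), IRF7 (1.06 ± 0.14, edgeR adjusted p = 2.46e-06) and SAMD9L (0.74 ± 0.10, edgeR adjusted p = 4.48e-06) rose over all cells and not in drug-susceptible cells; the difference between the sums was not tested.

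ISG20 fell with TGFB1 from 26.9 and 35.5 CPM to 11.9 and 19.7 CPM, by 1.01 ± 0.09 on the log2 scale (edgeR adjusted p = 4.4e-09), and in drug-susceptible cells from 27.0 and 35.7 to 9.68 and 18.2 CPM, by 1.21 ± 0.10 (edgeR adjusted p = 4.51e-09). It was the only member with a fall past 1 on that scale. USP18, at 12.3 and 12.5 CPM in Control and 15 and 16.9 CPM with TGFB1, rose in drug-susceptible cells by 0.35 ± 0.08 (edgeR adjusted p = 0.00228; not called without Control r2, at 0.27), though it was lower in primed than in drug-susceptible WM989 cells.

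**Figure D4:**
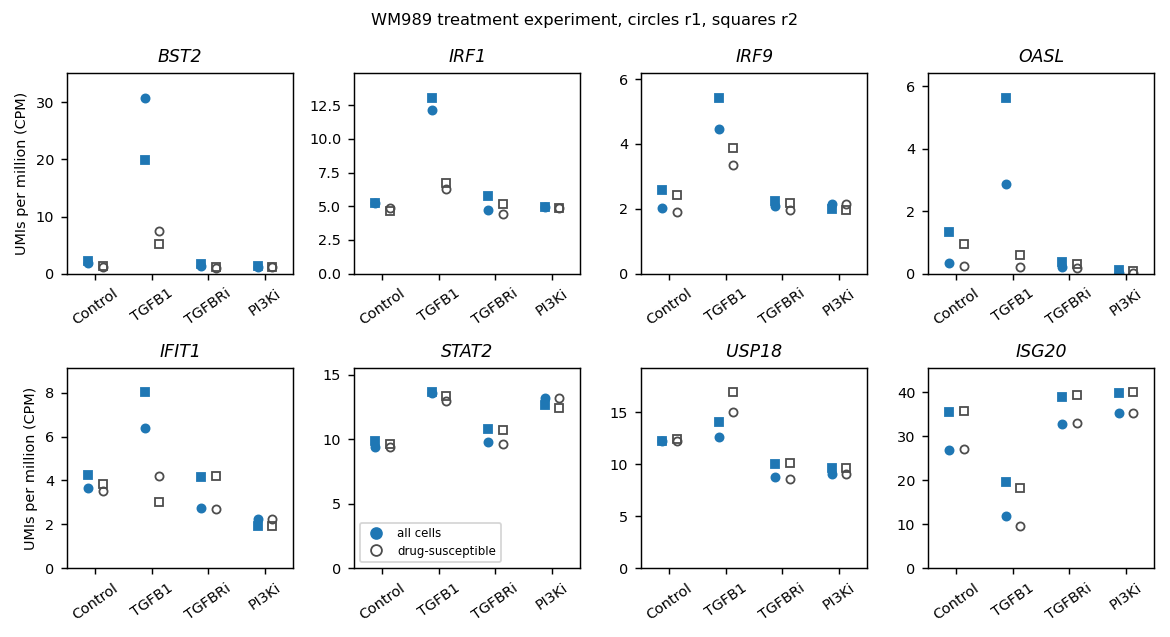
CPM of 8 members in each library of Control, TGFB1, TGFBRi and PI3Ki, over all cells (filled) and drug-susceptible cells (open), with r1 as circles and r2 as squares. BST2 rises with TGFB1 in both sums and OASL over all cells only, ISG20 falls with TGFB1, and OASL is lowest with PI3Ki.

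With PI3Ki, 4 members rose (5.83% of all genes) and 8 fell (6.83%). Those that fell were OASL, IFIT1, IFIT2, IFIT3, DDX60, IFIH1, USP18 and IFI44, and those that rose were STAT2, ISG20, IFI6 and IFI35. The calls of IFI44 and IFI35 were kept in only 5 and 8 of 15 alternatives. OASL was at 0.346 and 1.33 CPM in Control and 0.028 and 0.131 CPM with PI3Ki (27 and 107 UMIs against 2 and 16), a fall by 3.15 ± 0.34 on the log2 scale (edgeR adjusted p = 1.56e-06). IFIT2 was at 3.78 and 9.36 against 3.20 and 2.51 CPM and fell by 1.09 ± 0.22 (edgeR adjusted p = 0.00145), with r1 of both groups close together. The call was kept in 9 of 15 alternatives and lost without Control r2 (−0.58) or PI3Ki r2 (−0.41), among others. STAT2 was at 9.44 and 9.90 against 13.2 and 12.6 CPM, a rise by 0.52 ± 0.08 (edgeR adjusted p = 7.65e-05) that was as large in drug-susceptible cells (0.53). Without Control r2, 2 rose and 4 fell (1.67% and 2.94% of all genes), without PI3Ki r1 2 and 5 (2.55% and 3.05%), and without PI3Ki r2 3 and 1 (1.36% and 2.41%). Without the replicate term 1 rose and 3 fell (1.42% and 2.11%).

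IFIT-high cells were 0.265% and 0.379% of the Control libraries and 0.233% and 0.104% of the PI3Ki libraries. Without cluster 12, IFIT2 had a log2 fold change of −0.49 (edgeR adjusted p = 0.076) and IFIT3 −0.08 (edgeR adjusted p = 0.65). OASL kept a fall, of 1.72 (edgeR adjusted p = 0.017) without IFIT-high cells and 1.92 (edgeR adjusted p = 0.00249) without cluster 12. IFIT1, IFIT2 and IFIT3 are not read without IFIT-high cells, which they chose, and the part of the rare cells in the falls was not tested. In drug-susceptible cells 5 members rose (5.89%) and 6 fell (6.22%), and OASL there fell by 3.07 ± 0.35 (edgeR adjusted p = 2.34e-06) but had −0.07 (edgeR adjusted p = 0.965) without cluster 12 and −1.41 (edgeR adjusted p = 0.101) without IFIT-high cells. Without Control r1, 3 rose in drug-susceptible cells (3.09% of all genes), without Control r2 1 (1.75%), without PI3Ki r1 2 (2.64%), and without PI3Ki r2 3 rose and 1 fell (1.46% and 1.95%).

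With TGFBRi, 2 members rose (1.09%) and 5 fell (1.45%). OASL, at 0.218 and 0.366 CPM, fell by 1.47 ± 0.27 (edgeR adjusted p = 0.00314), a call kept in 11 of 15 alternatives and lost without Control r2 (−0.79) or TGFBRi r2 (−1.20). IFIT2, at 2.04 and 4.71 CPM, fell by 0.93 ± 0.21 (edgeR adjusted p = 0.0156), and USP18, at 8.71 and 10.0 against 12.2 and 12.2 CPM, by 0.37 ± 0.08 (edgeR adjusted p = 0.00965; not called without Control r1, at −0.29), with DDX58 and SAMD9 the other members that fell. IFITM2, a membrane protein that hinders virus entry, was at 1.87 and 1.33 CPM in Control and 2.67 and 2.60 CPM with TGFBRi (0.74 ± 0.15, edgeR adjusted p = 0.00698), and its near-identical neighbour IFITM3 rose by 0.35 ± 0.08 (edgeR adjusted p = 0.00982); reads of the IFITM genes may have been divided between them in the counting, which makes both uncertain, and neither was called without Control r2 (0.62 and 0.33) or TGFBRi r2 (0.55 and 0.20). The call of IFIT2 was kept in 9 of 15 alternatives and lost without Control r2 (−0.41) or TGFBRi r1, among others. Without IFIT-high cells OASL was at −1.05 (edgeR adjusted p = 0.278). The calls of DDX58 and SAMD9 were kept in only 2 and 5 of 15 alternatives. The 5 falls became 1 without Control r2, 2 without Control r1, 4 without TGFBRi r2 and 3 without any other library, the 2 rises became 1 without Control r1 and 0 without Control r2 or TGFBRi r2, and without the replicate term both counts were 0. Calls over all genes moved too, to 0.32% and 0.561% without Control r2 and 0.06% and 0.158% without the replicate term. In drug-susceptible cells 2 rose (1.22%) and 5 fell (1.59%), the falls becoming 1 without Control r2, 2 without Control r1, 5 without TGFBRi r2 and 3 without any other library, and the rises 0 without Control r2 or TGFBRi r2.

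The rest of the pathway was read from a list of 66 genes of ligands, receptors, kinases, sensors, regulators and targets of interferon gamma and NF-κB, of which 38 were tested. Over all cells, whose sums hold the changed share of primed cells, 16 rose and 3 fell with TGFB1 (16.3% and 12.7% of all genes), 0 and 3 with TGFBRi (1.09% and 1.45%) and 0 and 5 with PI3Ki (5.83% and 6.83%). In drug-susceptible cells 35 were tested, and 4 rose and 3 fell with TGFB1 (8.56% and 6.32%), 0 and 3 with TGFBRi (1.22% and 1.59%) and 0 and 3 with PI3Ki (5.89% and 6.22%). The chemokine gene CCL2 (log2 fold change 4.58), IL6 (2.66) and the chemokine gene CCL5 (1.67) rose most with TGFB1 over all cells, with 6 of 9 NF-κB targets in all. In drug-susceptible cells 1 of 7 NF-κB targets rose, CCL20 (0.79, edgeR adjusted p = 0.00085), 1 fell, CXCL8 (by 2.99, edgeR adjusted p = 0.00263), and CCL5 was at −0.31 (edgeR adjusted p = 0.713). CXCL8 and CCL5 were of very low level there, with an average log2 CPM of −3.02 and −2.51. Over all cells IL6 was at −2.45 and CXCL8 at −1.76 on that scale, so their large changes rest on few UMIs. The receptor kinase gene JAK2 (−0.89) and TLR3 (−0.71), the endosomal RNA sensor, were among those that fell over all cells, and both fell in drug-susceptible cells as well (by 0.68 and 0.85). The receptor genes IFNAR1 (0.02, edgeR adjusted p = 0.862) and IFNAR2 (0.08, edgeR adjusted p = 0.41) did not pass the test over all cells. With PI3Ki, CCL5 fell by 2.83 and CXCL8 by 2.13, and with TGFBRi, CCL20 fell by 1.23.

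Lentiviral barcodes gave a further split. In each library of the third experiment 21 to 265 cells had no lineage barcode, at median UMIs of 8290 to 16713 against 13117 to 21754 in cells with one. Of 38 members tested over 16954 genes, 1 was higher in cells with a barcode (1.12% of all genes), IFIT3 by 0.63 ± 0.17 on the log2 scale (edgeR adjusted p = 0.0258), and 0 were lower (0.212%), with 5 members at an unadjusted p under 0.05. The call was not made on thinned counts or in drug-susceptible cells alone, where the log2 fold change was between 0.46 and 0.57, and DESeq2 gave no adjusted p for IFIT3.

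Open chromatin at the start of the members was read from the peaks that the study called in each ATAC-seq library, as the fold enrichment of the highest peak within 500 bases of the annotated start on hg38. A peak was listed in all 12 libraries for 32 members, in some for OASL (6), IFITM2 (7), IFITM3 (10) and BST2 (11), and in none for MX1, IFITM1, IFI27 and XAF1. With 3 libraries against 3 the smallest two-sided exact permutation p is 0.1, so that no start could pass 0.05, and members are counted where the 3 values of a sort lie apart from the 3 of Mix. As deposited, the shares of members were near those of all starts. In EGFR High cells 2 of 32 lay above and 3 below (3.63% and 11.4% of 12298 starts), in NGFR High cells 7 above and 1 below (25.2% and 1.79%) and in EGFR NGFR High cells 4 above and 0 below (11.1% and 2.28%). Median enrichment at starts differed between libraries (32.9 to 41.1), and with each value divided by its library's median the counts were 3 and 1 (8.16% and 7.42%), 4 and 2 (7.57% and 8.77%) and 6 and 2 (8.55% and 7.83%).

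IFIT5, another IFIT gene, was among the members above Mix in every marker sort. Its fold enrichment was 13.9, 17.9 and 18.9 in Mix, 28.6, 30.7 and 26.9 in EGFR High, 31.4, 34.1 and 26.3 in NGFR High and 31.5, 24.6 and 20.8 in EGFR NGFR High cells. HERC5 was at 32.7, 32.5 and 35.3 in Mix, 38.4, 35.5 and 39.2 in EGFR High, 44.5, 42.9 and 44.2 in NGFR High and 47.0, 35.9 and 46.1 in EGFR NGFR High cells. Both genes lay above Mix in all 9 libraries of the marker sorts. How many of all starts did the same was not counted, and both were named after their values were seen. At OASL, the gene with one of the largest differences between states, no peak was listed in Mix or EGFR High, and low peaks were listed in NGFR High (5.96, 10.1 and 6.58) and EGFR NGFR High cells (6.55, 7.56 and 4.47). How many of all starts had a peak in those sorts only was not counted. The peak lists held 241836 to 255764 lines in NGFR High and 226349 to 271153 in EGFR NGFR High cells. They held 213412 to 227576 lines in Mix and 216450 to 245019 in EGFR High cells. IRF7 was at 41.2, 36.8 and 45.5 in Mix and 54.1, 60.8 and 60.6 in NGFR High cells. As deposited, without division by the library median, it overlapped Mix in EGFR High (48.7, 43.5 and 40.6) and EGFR NGFR High cells (56.5, 55.3 and 43.7). ISG20, with a median ratio under 1 over the wells of the first experiment, was at 58.7, 63.6 and 49.9 in Mix, 44.8, 42.1 and 44.1 in EGFR High and 42.5, 45.1 and 44.2 in NGFR High cells. In EGFR NGFR High cells it overlapped Mix (60.4, 44.4 and 41.7), and with values divided by the library median it lay apart from Mix in NGFR High but not in EGFR High cells. BST2 showed no such order, with 22.4, 17.9 and 18.9 in Mix, 5.55, 18.4 and 20.1 in EGFR High, 24.3, 21.4 and 5.64 in NGFR High, and 28.0, 15.6 and no listed peak in EGFR NGFR High cells.

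**Figure D5:**
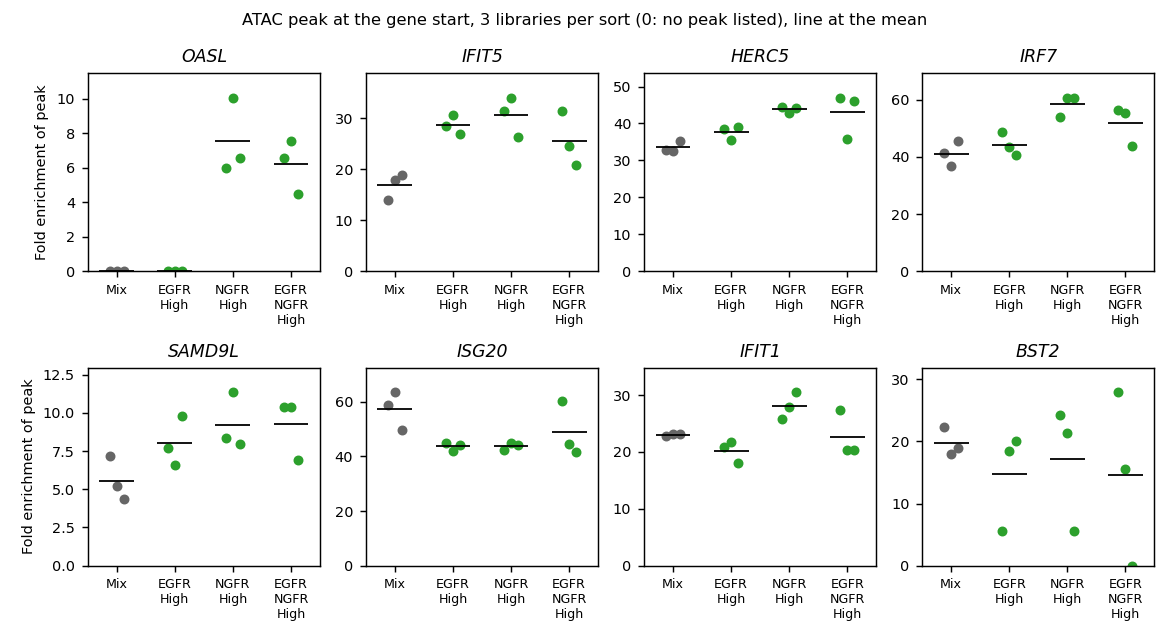
Fold enrichment of the highest ATAC-seq peak at the start of 8 members in each library of the 4 sorts (points, with 0 where no peak was listed) and the mean of each sort (line). IFIT5 and HERC5 are above Mix in all 3 marker sorts. At OASL a low peak is listed only in the NGFR High and EGFR NGFR High sorts. ISG20 as deposited is lower in EGFR High and NGFR High than in Mix and overlaps it in EGFR NGFR High.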

How the data were processed

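UMI counts per gene and cell were used as the authors deposited them, made with Cell Ranger on hg38 (version not given in the sources used here) and filtered by the authors on genes per cell, low and high, the latter to remove likely doublets, and on the percent of mitochondrial UMIs, a deposited column. No doublet caller was run here. The deposited cell labels gave library, replicate, cluster, state, phase and barcode UMIs. For ATAC-seq the authors aligned reads with Bowtie2 2.3.4.1, processed them with SAMtools 1.1 and called peaks per library with MACS2 2.1.1.20160309, per the submitters' processing notes and the labels. The fold enrichment (a ratio over local background) and the −log10 of the q-value, used as a minimum of 5 for a stricter alternative, are columns of the deposited peak lists. Starts are those of GENCODE 44 canonical transcripts, matched by symbol.

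Counts were summed over cells with NumPy 2.4.6 and SciPy 1.17.1 in Python 3.11.15 and scaled to CPM. Intervals are exact at 95%. A ratio was counted at 2-fold among genes with at least 5 CPM in either group, or, for IFIT-high cells, over all cells, a limit chosen after seeing the data. A level in either group lets a gene enter through the group where it is high, so these counts are descriptions. For treatments, summed counts were tested two-sided in edgeR 4.0.16 (R 4.3.3; quasi-likelihood, TMM, filterByExpr, treatment and replicate terms, adjusted p under 0.05), with DESeq2 1.42.0 as an alternative. The standard error is the absolute log2 fold change over the root of F. Cells of each well were divided over the treatment plates, and deviations of same-numbered libraries correlated with r from 0.182 to 0.646, so replicates were taken as paired. Scripts were tested on simulated data with 200 changed genes. The 40 members and the pathway list were chosen with earlier results of these data known. All members are accounted for, and values are given for at most 12 per comparison: in tested comparisons those past the threshold with the largest change and at most 5 of highest CPM, in the others the 8 largest and 4 smallest ratios. Genes named beyond that were chosen after their values were seen. UCell scores, lineage sequences and the authors' own comparisons were not used here, and 1 gene of the pathway list is not reported here.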

Additional observations from a re-analysis of the deposited data

Results flagged for a closer look

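Over the 8 wells of the first experiment the ratio of primed to drug-susceptible CPM was examined for 1 value far from the rest by Dixon's criterion in 39 members, and chance gives about 1 such value in 20 groups. For TRIM21, a ubiquitin ligase that binds antibodies in the cytosol, well 1 had a ratio of 2.01 (4.86 against 2.42 CPM), while the other wells lay between 1.26 and 1.44. For BST2, well 8 had a ratio of 25.1 (26.9 against 1.07 CPM), while the other wells lay between 6.21 and 11.1. 2 members that went one way in every WM989 well went the other way in WM983B. USP18 had a ratio of 1.40 in WM983B and was lower in primed cells of 8 of 8 WM989 wells, and MX1 had a ratio of 1.56 in WM983B and was likewise lower in 8 of 8 wells. These differences between lines were not tested, and WM983B is 1 library.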

How the results depend on the processing

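The TGFB1 counts over all cells kept within 1.5 times under every alternative run, with 11 to 16 members higher and 3 to 4 lower when 1 library at a time was left out. The other treatment counts did not. For TGFBRi over all cells, 0 members were higher and 0 lower without the replicate block, and 2 were lower with DESeq2, 3 without cluster 12 and 1 without IFIT-high cells (0 to 2 higher and 1 to 4 lower with 1 library left out). For PI3Ki, 1 was higher and 3 were lower without the replicate block, and 5 were lower with DESeq2, 4 without cluster 12 and 4 without IFIT-high cells (2 to 4 and 1 to 11 with 1 library left out). In drug-susceptible cells, TGFB1 had 8 higher without cluster 12, and 1 lower with DESeq2 and 1 without the replicate block (3 to 5 and 1 to 9). TGFBRi had 1 higher and 1 lower with DESeq2, 0 and 0 without the block, 3 lower without cluster 12 and 3 without IFIT-high cells (0 to 2 and 1 to 5). PI3Ki had 3 higher and 3 lower with DESeq2, 1 and 1 without the block, 2 lower without cluster 12 and 3 without IFIT-high cells (1 to 6 and 1 to 9). IFIT2 changed sign at 0.13 with TGFBRi without IFIT-high cells, which is void as IFIT1, IFIT2 and IFIT3 chose those cells, and at 0.032 with PI3Ki in drug-susceptible cells without cluster 12. Over all genes, leaving out 1 library moved the share called higher and lower from 10.4% to 18.1% and 6.28% to 15.6% with TGFB1, 0.32% to 2.98% and 0.561% to 3.04% with TGFBRi, and 1.36% to 8.08% and 2.41% to 9.36% with PI3Ki. The barcode split gave 0 members in each of 3 alternatives, of which DESeq2 gave IFIT3 no adjusted p. With 1 library left out, IFIT2 ranged from 0.29 to 1.141 with TGFB1, −1.62 to −0.41 with PI3Ki and −1.35 to −0.41 with TGFBRi over all cells. The ratio of sums in WM989 was 1.59 as the median within wells. In WM983B it was 1.48 in G1 cells alone, 1.25 with 5 members above 2-fold without IFIT-high cells, with the 3 genes that chose them included (1.24 and 5 of the other 37 members, 1.34 and 8 with all cells), and 1.41 and 1.22 (0 members) with cluster 0 or cluster 2 as the primed cells. In cluster 12 it was 13 in Control libraries. For ATAC-seq, replicate numbers did not pair the libraries (correlations −0.06 to 0.12). Differences within equal numbers, the replicate block, put 4 higher (8.04% of all starts) and 6 lower (21.7%) in EGFR High, 12 higher (40%) in NGFR High and 7 higher (22.5%) in EGFR NGFR High cells, and values divided by the library median put 1 lower, 4 higher and 2 lower, and 2 lower. With 1 replicate left out the ranges were 3 to 8 and 6 to 10 (6.24% to 14.7% and 19.6% to 40.6% of all starts), 10 to 16 and 1 to 4 (35.6% to 53.6% and 5.16% to 7.60%), and 6 to 17 and 0 to 7 (17.7% to 40.9% and 4.22% to 18.5%). Alternatives that leave out cluster 12 or IFIT-high cells were chosen after seeing the data, and the cause of changes was not tested. Of single gene values, 685 kept their call, 231 lost it and 2 changed sign, and for 3 DESeq2 gave no adjusted p. Depth limits the members under 5 CPM, among them IFITM1, MX1 and MX2 in WM989, and 1 library limits WM983B.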

Other observations

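The 66 pathway genes were read in the IFIT-high cells as well, as values without a test. Of those with at least 5 CPM over all cells, 7 of 27, 11 of 33 and 1 of 19 were above 2-fold in the 3 experiments (2.08%, 1.44% and 2.13% of all genes) and 0 below 0.5-fold. The genes named next were chosen after their values were seen. The chemokine gene CXCL10, a classic target of interferon, had 109 of its 113 UMIs in the IFIT-high cells of the first experiment and 673 of 705 in those of WM983B. CXCL11 had 124 of 130 and 303 of 519. In the third experiment both were nearly absent, with CXCL10 at 0.0029 CPM over all cells and CXCL11 at 0 CPM. CCL5 was at 131 against 7.54 CPM, 459 against 30.6 CPM and 34.9 against 0.62 CPM in IFIT-high and other cells of the 3 experiments, and GBP4, a guanylate-binding protein gene, had ratios of 53.7, 11 and 45.9. IL6 had ratios of 13.2, 35.7 and 14.7. GBP4 and IL6 were at 0.101 and 0.159 CPM over all cells of the third experiment, and IL6 was at 0.642 CPM in WM983B. Those ratios rest on few UMIs, and all ratios of pathway genes here pool the states. Others had lower ratios or no common direction, TYK2 with 0.80, 0.71 and 1.08, PIAS1 with 1.25, 0.71 and 1.19, SOCS3 with 1.35, 0.83 and 1.29 and CXCL8 with 0.63, 0.76 and 19.2, the last from 11 UMIs in the IFIT-high cells. The receptor genes IFNAR1 and IFNAR2 were close to 1 in WM983B (1.1 and 1.05) and in the third experiment (0.98 and 1.0). The melanocyte factor genes SOX10 and MITF are read within a state, since 50.8%, 77.8% and 40.1% of the IFIT-high cells were primed against 22.4%, 49.8% and 10.1% of the other cells. Among primed cells SOX10 was at 10.2 against 7.02, 141 against 194 and 19.0 against 39.9 CPM in IFIT-high and other cells of the 3 experiments, and among drug-susceptible cells at 88.7 against 130, 237 against 208 and 115 against 140 CPM. MITF was lower in the IFIT-high cells each time, at 34.9 against 45.9, 126 against 200 and 39.3 against 77.3 CPM in primed and 227 against 314, 343 against 393 and 187 against 340 CPM in drug-susceptible cells.

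Interferon transcripts themselves were nearly undetected. Of 21 ligand genes, 10, 18 and 11 had 0 UMIs in the 3 experiments. IFNB1 had 9 UMIs in the first experiment, 4 of them in 1 IFIT-high cell, 0 in WM983B and 3 in the third, 2 of them in 1 IFIT-high cell. IFNL1 had 2, 4 and 1 UMIs in all, each of them in an IFIT-high cell. IFNA1 had 49, 0 and 24 UMIs, none of them in an IFIT-high cell. IFNE, an interferon of epithelia, had 100, 10 and 22 UMIs, 96, 5 and 16 of them in primed cells, and 1 in an IFIT-high cell each time.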
